A study of Mus musculus with 8 samples.

Results

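The cytosolic ribosomal protein genes were followed in the transcriptome of mouse small-intestinal crypt organoids with and without MG53 overexpression. They were chosen by name, as protein-coding genes whose symbol is Rpl or Rps followed by a digit, together with Rpsa, Rplp0, Rplp1 and Rplp2, and without pseudogenes and the S6 kinases. The annotation holds 86 such genes, 67 had an identifier in the expression tables, and 65 reached a mean of 0.5 FPKM (fragments counted per transcript length and per mapped depth of the library), out of 10704 genes that did. Of the 65, 37 encode large-subunit proteins and 27 small-subunit proteins, and the other 1, Rps19bp1, matched by its symbol alone and encodes a protein that binds RPS19. The study compared organoids from WT mice (4 samples, WT 1 to 4) with organoids from MG53-TG mice (4 samples, MG53-TG 1 to 4), which overexpress the tripartite motif protein MG53, encoded by Trim72. These are the genotypes of the sample labels, while the paper also describes a transcriptome of MG53;Lgr5 organoids, which carry an Lgr5 reporter. All 8 samples were grown from isolated crypts embedded in Matrigel with IntestiCult OGM medium, and none received a drug. The promoter of the transgene and the age of the mice were not given for these samples, and nothing states that the samples came from separate animals, so the p-values measure only the spread between these samples.

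A cytosolic ribosome joins a small subunit, which reads the mRNA, to a large subunit, which forms the peptide bonds. Each subunit is built in the nucleolus from ribosomal RNA and many proteins that are needed in equal amounts, apart from the stalk proteins. Their mRNAs are among the most abundant of a growing cell, and most begin with a 5′ terminal oligopyrimidine tract (TOP), a C followed by a run of pyrimidines through which TOR signalling and LARP1 set how much of the mRNA is translated. In the intestinal crypt, dividing stem and progenitor cells make many ribosomes, whereas enterocytes leave the cell cycle as they mature.

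The start of the transcript is the feature these genes are known for, so the annotated starts were read from the promoters of RefSeq (GRCm38.p6), which held 51 of the 64 subunit genes with 61 starts. A C followed by at least 4 pyrimidines stood at the annotated first base of 13 of these 61 starts (21.3%), against 2.51% of the 32851 mouse promoters in the same table. An annotated start that is off by a few bases would hide such a run from this count. The 13 windows below span 10 bases before to 20 bases from the annotated start, 5′ to 3′, with the pyrimidine run from the first base in capitals, in the order of the fold change given later.
Rpl15 (chr14:18270967-18270996, minus strand): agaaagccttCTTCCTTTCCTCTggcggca
Rps21 (chr2:180257369-180257398, plus strand): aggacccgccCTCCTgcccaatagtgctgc
Rps10 (chr17:27635225-27635254, minus strand): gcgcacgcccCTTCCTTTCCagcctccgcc
Rps27 (chr3:90213629-90213658, minus strand): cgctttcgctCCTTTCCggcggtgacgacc
Rplp2 (chr7:141447641-141447670, plus strand): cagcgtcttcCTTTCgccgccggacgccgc
Rpl28 (chr7:4792955-4792984, plus strand): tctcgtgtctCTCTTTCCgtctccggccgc
Rpl35a (chr16:33056472-33056501, plus strand): gcttgccttcCTCTTTCCgccatcttggcg
Rps18 (chr17:33955646-33955675, minus strand): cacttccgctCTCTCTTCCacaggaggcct
Rps6 (chr4:86857348-86857377, minus strand): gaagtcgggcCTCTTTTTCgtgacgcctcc
Rpl38 (chr11:114668570-114668599, plus strand): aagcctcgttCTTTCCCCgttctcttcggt
Rpl35 (chr2:39005112-39005141, minus strand): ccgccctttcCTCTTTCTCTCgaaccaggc
Rps15a (chr7:118116128-118116157, minus strand): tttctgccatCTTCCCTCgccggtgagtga
Rpl14 (chr9:120571507-120571536, plus strand): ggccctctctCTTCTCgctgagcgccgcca

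The longest run, of 13 pyrimidines, was that of Rpl15, and the runs of Rps21 and Rplp2 were the shortest, with 5. The 13 genes with the run at the annotated start had a median log2 fold change of -0.27 in MG53-TG against WT, and 7 of them were called lower. The 38 genes with a promoter but without the run had a median of -0.35, with 20 called lower. Among all genes tested the median was -0.17 and 29.2% were called lower. With median-of-ratios scaling, a second way to scale the samples that is described later, 2 of the 13 and 6 of the 38 were called lower, against 20.5% of all genes, so neither share was above the background. The difference between the sets with and without the run was not tested.

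Longer promoter sequences are shown for the genes with the largest decrease in each subunit, Rps2 and Rpl22l1, for Rpl15, which had the longest run, and for Rps27l, which was not called lower. Each runs from 250 bases before to 30 bases from the annotated start. Capitals mark matches to an ETS-type core (CCGGAAG, or CTTCCGG on the other strand) and to a TATA box (TATAAA, or TTTATA on the other strand). Rps27l has another annotated start, whose window (chr9:66946163-66946442, plus strand) held neither motif and is not printed.
Rps2 (chr17:24719813-24720092, plus strand): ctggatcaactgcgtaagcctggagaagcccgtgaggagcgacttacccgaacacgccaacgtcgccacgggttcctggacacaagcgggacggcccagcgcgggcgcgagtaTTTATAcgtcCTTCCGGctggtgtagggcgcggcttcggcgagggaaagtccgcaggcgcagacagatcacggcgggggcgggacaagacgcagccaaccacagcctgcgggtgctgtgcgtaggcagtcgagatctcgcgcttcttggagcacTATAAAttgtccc
Rpl22l1 (chr3:28805258-28805537, plus strand): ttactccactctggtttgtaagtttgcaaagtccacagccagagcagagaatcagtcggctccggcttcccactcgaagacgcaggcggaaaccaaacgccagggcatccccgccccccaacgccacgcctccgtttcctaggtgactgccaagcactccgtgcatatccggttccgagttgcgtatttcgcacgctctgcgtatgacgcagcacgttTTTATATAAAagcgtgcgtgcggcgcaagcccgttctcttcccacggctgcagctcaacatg
Rpl15 (chr14:18270957-18271236, minus strand): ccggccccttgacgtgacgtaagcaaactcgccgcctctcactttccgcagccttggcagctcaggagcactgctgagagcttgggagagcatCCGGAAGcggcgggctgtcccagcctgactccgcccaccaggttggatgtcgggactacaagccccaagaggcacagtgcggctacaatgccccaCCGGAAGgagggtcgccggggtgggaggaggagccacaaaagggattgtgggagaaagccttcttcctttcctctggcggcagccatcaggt
Rps27l (chr9:66945836-66946115, plus strand): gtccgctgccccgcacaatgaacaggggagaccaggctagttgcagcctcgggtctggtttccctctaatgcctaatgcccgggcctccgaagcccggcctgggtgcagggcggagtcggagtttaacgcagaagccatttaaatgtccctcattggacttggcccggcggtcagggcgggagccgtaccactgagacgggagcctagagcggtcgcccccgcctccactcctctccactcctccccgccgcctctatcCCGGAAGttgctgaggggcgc
Motifs were counted over the 300 bases of each promoter in the table, which run from 250 bases before to 50 bases from the annotated start and so past the part printed. The ETS-type core was found in 24 of the 61 promoters (39.3%) and in 8.86% of all promoters of that length. The letters of a TATA box were found, anywhere in the window, in 7 (11.5%) against 13.6% of all promoters, and the core AAGATGG of YY1 sites (CCATCTT on the other strand) in 11 (18.03%) against 6.34%. In Rpl22l1 the TATA letters stood 28 bases before the annotated start, where TTTATA and TATAAA overlap in a single stretch, and in Rps2 they stood at -137 and at 18, the latter after the start. Rpl15 held 2 ETS-type cores, 157 and 62 bases before the start. These matches are letters found in a window, and no binding was measured.

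As a check of the labels, Trim72, the gene that encodes MG53, was listed at 0 in all 4 WT samples and at 16.4, 27.4, 31.9 and 36.5 FPKM in MG53-TG 1 to 4. The FPKM of all genes summed to between 280498 and 285494 in WT and between 280382 and 296454 in MG53-TG. Read depth is unknown, since the tables hold no counts. Epithelial markers were present in every sample, with summed levels from 2137 to 2465 FPKM in WT and from 1791 to 2267 FPKM in MG53-TG. Of the 7 tested, 4 were called lower and 1 higher, beside 29.2% lower and 15.7% higher among all genes. With median-of-ratios scaling, 2 of the 7 were lower and 1 higher, beside 20.5% and 20.6% of all genes. The summed level of the mesenchyme markers with a value ran from 1.799 to 3.24 FPKM in WT and from 1.31 to 5.58 FPKM in MG53-TG, with 2 of the 3 tested called higher. Immune markers summed from 3.77 to 9.24 FPKM in WT and from 0.609 to 1.47 FPKM in MG53-TG, the 1 tested was called lower, and Ptprc was listed at 0 in all WT samples.

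The ribosomal protein genes as a group took a smaller part of the transcriptome in MG53-TG organoids. The 64 subunit genes made up 13.9, 13.8, 14.01 and 13.8% of the FPKM of all genes in WT 1 to 4 and 10.6, 10.6, 10.7 and 10.7% in MG53-TG 1 to 4, or 13.9% ± 0.1003 against 10.6% ± 0.0581 (SD, n = 4 each). Every MG53-TG sample lay below every WT sample, and the gap was many times the spread within either group. A single scaling factor per sample does not change this share, but it does depend on the other abundant genes. In bulk RNA, fewer cells of a type and less RNA of these genes per cell cannot be told apart. Large-subunit genes summed to 19895 ± 734 FPKM in WT and 15767 ± 435 FPKM in MG53-TG, and small-subunit genes to 19375 ± 309 and 15058 ± 503 FPKM. The mean summed level differed by -20.8% for the large subunit and by -22.3% for the small subunit. After median-of-ratios scaling, described later, the differences were -9.16% and -10.8%, and the groups overlapped for both sums, with MG53-TG 3 and 4 above at least 1 WT sample in the large subunit and MG53-TG 4 in the small subunit. The ratio of the large to the small sum was 1.03 ± 0.0487 in WT and 1.05 ± 0.0179 in MG53-TG, a difference within the WT spread.

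**Figure D1:**
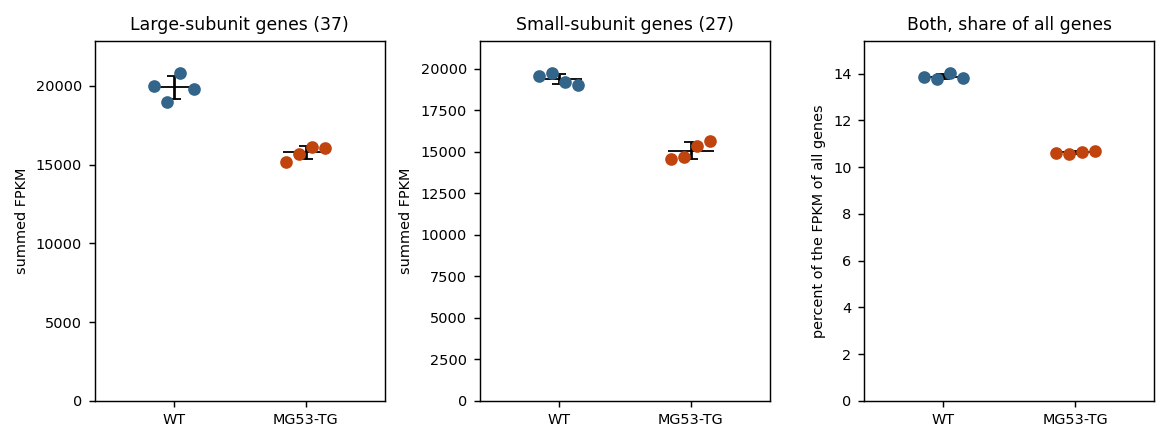
Summed FPKM of the 37 large-subunit and the 27 small-subunit genes (left and middle) and the share of the FPKM of all genes taken by both (right, in percent) in 4 WT and 4 MG53-TG samples. Points are samples and bars the mean ± SD. All MG53-TG points lie below all WT points in each panel, with shares near 10.6% against 13.9%.

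Gene by gene, limma on log2(FPKM + 1) called 34 of the 65 genes lower in MG53-TG and 0 higher, with p adjusted across the 10704 genes and a threshold of 0.05. Of all genes tested, 29.2% were called lower and 15.7% higher, so the family held more lower calls and fewer higher calls than the background. The members also varied less within a group. Their median coefficient of variation (SD over mean) was 5.02% in WT and 8.67% in MG53-TG, against 13.6% and 21.4% for all genes. A shift of the same size is more readily called at a smaller spread, and what this added to the lower share was not tested. The median log2 fold change was -0.29 for the family and -0.17 for all genes. In the large subunit 19 of 37 genes were lower (median -0.29), and in the small subunit 15 of 27 (median -0.32). The 4 MG53-TG samples lay entirely below the 4 WT samples for 35 of the 65 genes, against 29.0% of all genes tested, and entirely above them for 0, against 15.7%. Only 7 genes had a fold change above 0, and none of these 7 was called.

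How many members were called depended on how samples were scaled. Median-of-ratios scaling, which assumes that the typical gene does not change, moved the median of all genes by 0.16 to -0.009, and quantile normalization moved it by 0.11. With median-of-ratios scaling 12 members were lower, 1 was higher and the median was -0.11, while 20.5% of all genes were lower and 20.6% higher, so the share of lower members (18.5%) was no more than the background. With quantile normalization 39 members were lower, 0 were higher and the median was -0.37, against 23.6% lower and 19.0% higher among all genes. The median of the family was below that of all genes in each of these fits, by -0.12 for the FPKM as deposited, -0.096 with median of ratios and -0.32 with quantiles. All 3 fits are of the same 8 samples on the log2(FPKM + 1) scale, which understates low genes, while 62 of the 65 members had a mean above 100 FPKM. Quantile normalization also resets values by rank within each sample. How far these gaps follow the level of the genes was not tested. The 12 genes called lower in all 3 included Rps2, Rpl22l1, Rpl27, Rplp1, Rpsa, Rpl3, Rpl15, Rpl34, Rps21, Rpl29 and Rpl10a, and 16 of the 65 changed sign between the FPKM as deposited and median of ratios.

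**Figure D2:**
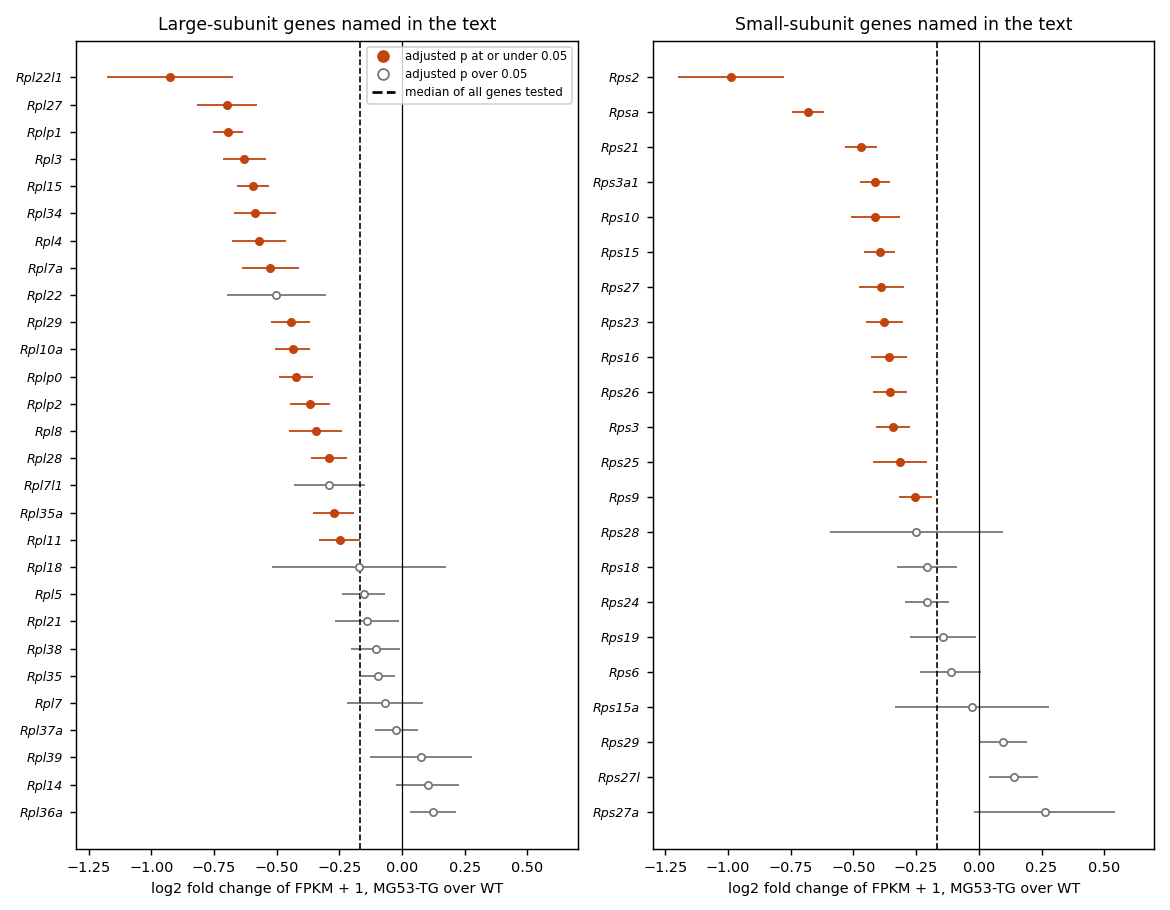
Log2 fold change of FPKM + 1, MG53-TG over WT, with its standard error for the large-subunit genes (left) and small-subunit genes (right) named in the text, from the FPKM as deposited. Filled points have an adjusted p of at most 0.05 and the dashed line is the median of all genes tested. Filled points stand only on the left of 0, from Rps2 (-0.99) and Rpl22l1 (-0.93) upward.

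**Figure D3:**
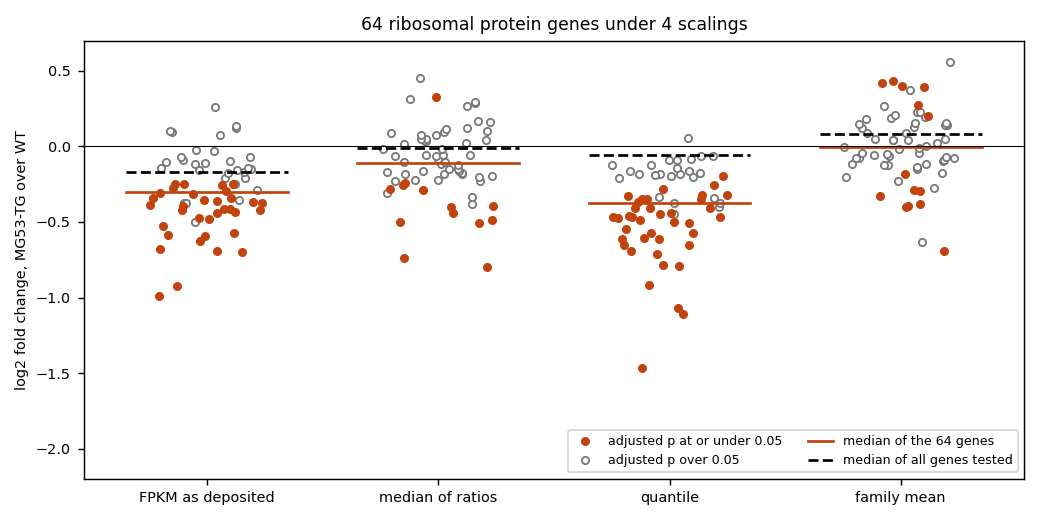
Log2 fold changes of the 64 subunit genes, MG53-TG over WT, from the FPKM as deposited, after median-of-ratios scaling, after quantile normalization and after scaling to the mean of the family itself. Filled points have an adjusted p of at most 0.05, solid bars are the median of the 64 genes and dashed bars the median of all genes tested. The solid bar is below the dashed bar under each scaling.

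Among small-subunit genes, Rps2 (chr17:24718116-24721929), whose protein lies near the mRNA entry channel, had the largest decrease and the second highest overall mean level of the family, after Rps15. It measured 1861, 2175, 2144 and 1764 FPKM in WT 1 to 4 and 1192, 1299, 1017 and 624 FPKM in MG53-TG 1 to 4. All MG53-TG samples were below all WT samples, with MG53-TG 4 the lowest, and the log2 fold change was -0.99 ± 0.21 (SE), adjusted p = 0.0056. Rpsa (chr9:120127689-120132369), which encodes a small-subunit protein also known as the laminin receptor precursor, measured 725, 697, 737 and 691 FPKM in WT 1 to 4 and 451, 449, 446 and 429.8 FPKM in MG53-TG 1 to 4. The spread within each group was small against the gap, and the fold change was -0.68 ± 0.062 (SE), adjusted p = 5.9e-05.

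Rps21 and Rps3a1, the mouse form of RPS3A, were also among the 5 largest non-overlapping decreases of the small subunit. Rps21 was at 468 to 509 FPKM in WT and 339.9 to 354 FPKM in MG53-TG (-0.47 ± 0.064 (SE), adjusted p = 0.00058). Rps3a1 was at 1483 to 1531 FPKM in WT and 1074 to 1154 FPKM in MG53-TG (-0.41 ± 0.059 (SE), adjusted p = 0.00073). With median-of-ratios scaling Rps21 kept its call at a smaller decrease (-0.28, adjusted p = 0.043) and Rps3a1 did not, at -0.22 with an adjusted p of 0.11. Rps15, the member with the highest overall mean level, was at 1725 to 1865 FPKM in WT and 1316 to 1393 FPKM in MG53-TG (-0.40 ± 0.061 (SE), adjusted p = 0.0012), without a call with median of ratios (adjusted p = 0.15). Other called small-subunit genes, Rps3, Rps9, Rps10, Rps16, Rps23, Rps25, Rps26 and Rps27, had fold changes between -0.41 and -0.25, and none of these 8 was called with median of ratios. Rps25 kept its call in 2 of the 8 fits without 1 sample.

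Rplp0, Rplp1 and Rplp2 encode the stalk proteins of the large subunit, which recruit elongation factors, and all 3 were called lower. With median of ratios Rplp1 kept its call, and Rplp0 (adjusted p = 0.071) and Rplp2 (adjusted p = 0.14) did not. Rplp1 (chr9:61913284-61914542) measured 1879, 1753, 1734 and 1696 FPKM in WT 1 to 4 and 1107, 1093, 1068 and 1095 FPKM in MG53-TG 1 to 4. The 4 MG53-TG samples were nearly equal, and the fold change was -0.69 ± 0.061 (SE), adjusted p = 5.2e-05. Rplp0 was at 844 to 941 FPKM in WT and 643 to 701 FPKM in MG53-TG (-0.42 ± 0.067 (SE), adjusted p = 0.0013), and Rplp2 at 158 to 170.1 FPKM and 115 to 136 FPKM (-0.37 ± 0.080 (SE), adjusted p = 0.0061). The decrease of Rplp1 was the largest of the 3. A single factor per sample does not change the ratio of Rplp1 to Rplp2 in the same sample, although quantile normalization can. This ratio was 11.05, 11.04, 10.9 and 10.6 in WT 1 to 4 and 8.13, 8.996, 8.25 and 9.54 in MG53-TG 1 to 4. The ratio of Rplp1 to Rplp0 was 1.97 ± 0.113 in WT and 1.63 ± 0.0622 in MG53-TG (SD, n = 4 each). Neither ratio overlapped between the groups; they were chosen after the fold changes were seen and are given without a test.

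Rpl27, Rpl3 and Rpl15 were, with Rplp1 and Rpl22l1, the 5 largest decreases of the large subunit among called genes whose groups did not overlap. Rpl3 (chr15:80077791-80091868), whose protein reaches toward the peptidyl transferase centre, measured 898, 894, 929 and 1051 FPKM in WT 1 to 4 and 646, 616, 633 and 543 FPKM in MG53-TG 1 to 4, a fold change of -0.63 ± 0.086 (SE), adjusted p = 0.0006. Rpl15 (chr14:18267823-18271391) measured 447, 427, 425 and 415 FPKM in WT 1 to 4 and 279, 293, 273 and 288 FPKM in MG53-TG 1 to 4, a fold change of -0.59 ± 0.065 (SE), adjusted p = 0.00017. Every MG53-TG value of both genes was below every WT value. Rpl27 (chr11:101442298-101445529) was at 307 to 412 FPKM in WT and at 197 to 257 FPKM in MG53-TG (-0.70 ± 0.12 (SE), adjusted p = 0.0019). Rpl34, Rpl4 and Rpl7a followed, with fold changes of -0.59, -0.57 and -0.52, and the calls of Rpl4 and Rpl7a ended with median of ratios (adjusted p = 0.065 and 0.078). Rpl8, which was called lower (-0.34 ± 0.11 (SE), adjusted p = 0.027), is the 1 called gene whose groups overlapped, since WT 2 at 1051 FPKM lay below MG53-TG 1 at 1092 FPKM. Its call was kept in 3 of the 8 fits without 1 sample and ended with median of ratios (-0.15, adjusted p = 0.33).

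**Figure D4:**
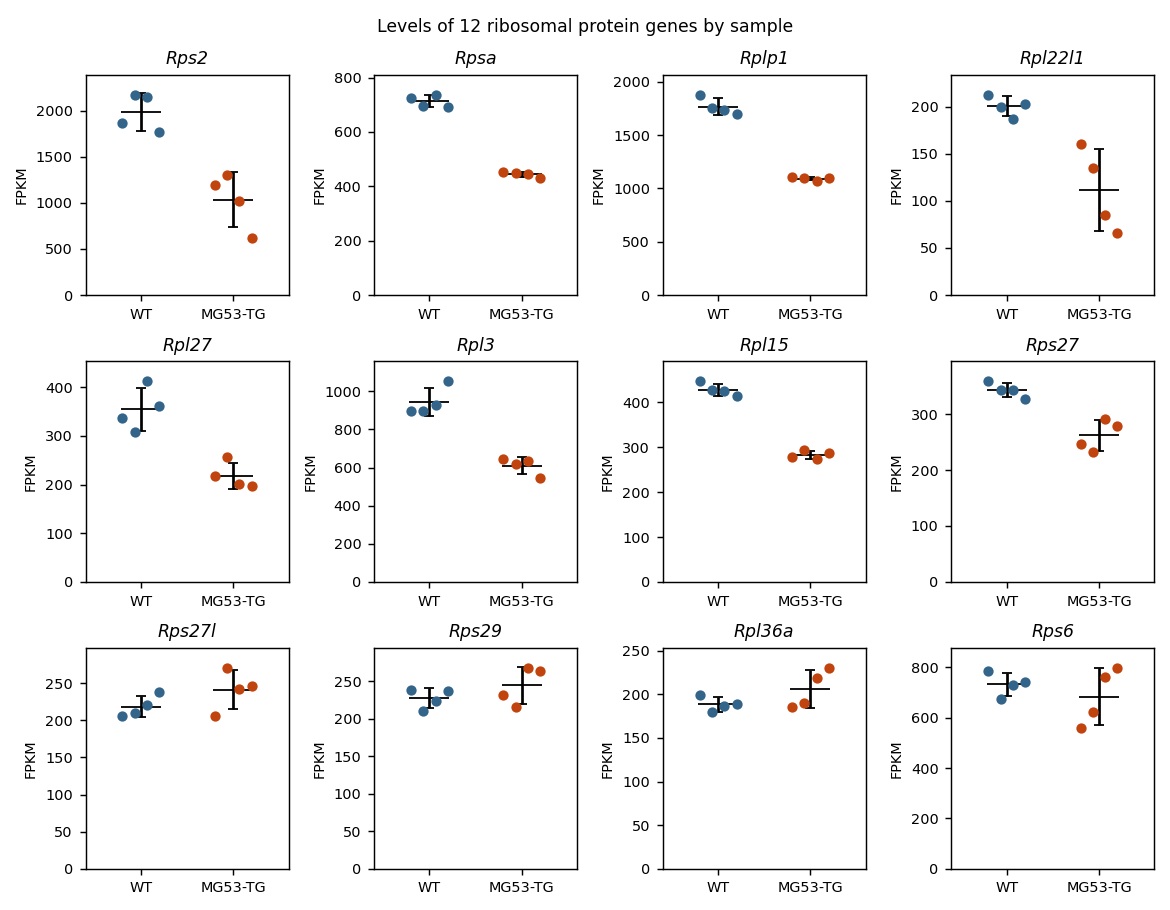
FPKM of 12 ribosomal protein genes in each of 4 WT and 4 MG53-TG samples, with the mean ± SD as bars and each axis starting at 0. The 8 genes from Rps2 to Rps27 have all MG53-TG points below all WT points, while in Rps27l, Rps29, Rpl36a and Rps6 the groups overlap.

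Paralogue pairs allow a comparison within a sample. RPL22L1 can replace RPL22 in the large subunit, and Rpl22l1 measured 213, 199.8, 187 and 203 FPKM in WT 1 to 4 and 161, 135, 84.9 and 65.9 FPKM in MG53-TG 1 to 4, a fold change of -0.93 ± 0.25 (SE), adjusted p = 0.017. All MG53-TG samples were below WT, but they spread widely, from 65.9 to 161 FPKM. Rpl22 measured 219.5, 131, 213 and 214 FPKM in WT 1 to 4 and 129, 144, 105 and 165 FPKM in MG53-TG 1 to 4, where WT 2 was low and the groups overlapped (-0.50 ± 0.20 (SE), adjusted p = 0.065). Rpl22 was called lower without WT 2 (-0.68, adjusted p = 0.011), without MG53-TG 4 (-0.60, adjusted p = 0.0496) and with quantiles (-0.69, adjusted p = 0.019), and not with median of ratios (-0.31, adjusted p = 0.25) or from its end rows alone (-0.049, adjusted p = 0.95). RPS27L, whose gene is a known p53 target, is the paralogue of RPS27. Rps27 measured 359, 343, 342 and 327 FPKM in WT 1 to 4 and 247, 232, 292 and 278 FPKM in MG53-TG 1 to 4 and was called lower (-0.39 ± 0.089 (SE), adjusted p = 0.0078), a call that ended with median of ratios (adjusted p = 0.26). Rps27l measured 206, 209.9, 221 and 238 FPKM in WT 1 to 4 and 206, 270.2, 243 and 247 FPKM in MG53-TG 1 to 4 and was not called (0.14 ± 0.098 (SE), adjusted p = 0.28). The sign of Rps27l turned with scaling: it was 0.33 with median of ratios (adjusted p = 0.048, the 1 member called higher there) and -0.087 with quantiles (adjusted p = 0.54).

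The ratio of Rps27l to Rps27 within a sample is free of any single factor per sample, although not of quantile normalization. It was 0.574, 0.613, 0.645 and 0.728 in WT 1 to 4 and 0.834, 1.16, 0.832 and 0.888 in MG53-TG 1 to 4. The groups did not overlap, and the log2 ratio was higher by 0.53 in MG53-TG (exact two-sided permutation test, p = 0.0286, the smallest that 4 against 4 allows; adjusted over the 3 paralogue ratios, p = 0.0857). By comparison, the ratio of Rpl22l1 to Rpl22 was 1.08 ± 0.301 in WT and 0.847 ± 0.3504 in MG53-TG (SD, n = 4 each; exact permutation p = 0.343, adjusted p = 0.429). The ratio of Rpl7l1 to Rpl7 was 0.0358 ± 0.00903 and 0.0304 ± 0.00769 (exact permutation p = 0.429, adjusted p = 0.429). Rpl7l1, which encodes a protein of ribosome assembly related to RPL7, was one of the 3 least abundant members, at 31.8 to 33.7 FPKM in WT and 21.7 to 32.2 FPKM in MG53-TG, and was not called (-0.29 ± 0.14 (SE), adjusted p = 0.13). None of the 3 ratios passed the adjusted threshold. Rpl39l and Rpl3l, the paralogues of Rpl39 and Rpl3 known from testis and muscle, did not reach the level filter.

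Members known for roles outside translation gave a mixed picture. RPL5 and RPL11 bind the 5S rRNA and, when free, inhibit the p53 ligase MDM2. Rpl11 measured 312, 284, 308 and 307 FPKM in WT 1 to 4 and 226, 256, 266 and 273 FPKM in MG53-TG 1 to 4 and was called lower (-0.25 ± 0.082 (SE), adjusted p = 0.036). Rpl5 measured 401, 371, 407 and 407 FPKM in WT 1 to 4 and 329, 331, 369.6 and 399 FPKM in MG53-TG 1 to 4 and was not called (-0.15 ± 0.085 (SE), adjusted p = 0.17). Neither was called with median of ratios (adjusted p = 0.72 for Rpl11 and 0.84 for Rpl5), and with quantiles both were called lower (adjusted p = 0.00099 and 0.0058). Rpl11 kept its call in only 2 of the 8 fits that left out 1 sample. Rps6, the substrate of the S6 kinases, measured 786, 675, 731 and 740.0 FPKM in WT 1 to 4 and 558, 622, 760.1 and 796 FPKM in MG53-TG 1 to 4. MG53-TG 1 and 2 were below every WT value, and MG53-TG 3 and 4 were not, and the gene was not called (-0.11 ± 0.12 (SE), adjusted p = 0.47). Rps3, which also has a role in DNA repair, was lower (-0.34 ± 0.068 (SE), adjusted p = 0.0041), at 698 to 786 FPKM in WT and 556 to 604 FPKM in MG53-TG, and lost its call with median of ratios (-0.15, adjusted p = 0.28).

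Rps19 and Rps24 are genes of Diamond-Blackfan anaemia, an inherited failure of red cell production. Rps19 measured 193, 172, 203 and 165 FPKM in WT 1 to 4 and 141, 152, 208 and 168 FPKM in MG53-TG 1 to 4, with overlapping groups (-0.14 ± 0.13 (SE), adjusted p = 0.40). Rps24 was at 409.9 to 443 FPKM in WT and 337 to 427 FPKM in MG53-TG (-0.21 ± 0.087 (SE), adjusted p = 0.082). Neither was called, although both were called lower after quantile normalization, with adjusted p of 0.025 and 0.0020. With median of ratios Rps19 was at 0.048 (adjusted p = 0.84) and Rps24 at -0.015 (adjusted p = 0.93). Rps27a encodes a fusion of ubiquitin and a small-subunit protein and measured 136, 203, 235 and 149 FPKM in WT 1 to 4 and 199, 183, 151 and 367 FPKM in MG53-TG 1 to 4. It was uneven within both groups, with MG53-TG 4 highest, and was not called (0.26 ± 0.28 (SE), adjusted p = 0.47). Without MG53-TG 4 its fold change was -0.0007. Ribosomal proteins named otherwise split in direction. Fau, which encodes RPS30 fused to a ubiquitin-like protein, measured 373, 356, 393 and 404 FPKM in WT 1 to 4 and 456, 453, 602 and 663 FPKM in MG53-TG 1 to 4 and was called higher (0.49 ± 0.13 (SE), adjusted p = 0.017). Rack1, a scaffold protein of the small subunit, measured 922, 899, 876 and 831 FPKM in WT 1 to 4 and 753, 687, 704 and 687 FPKM in MG53-TG 1 to 4 and was called lower (-0.32 ± 0.067 (SE), adjusted p = 0.0055), a call that median of ratios did not keep (adjusted p = 0.30).

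To ask which members differed from the rest of the family, every sample was also scaled to the geometric mean of its own 64 subunit genes, which sets the family's mean difference near 0 and was chosen after the data were seen. That geometric mean was 462 ± 13.96 FPKM in WT and 376 ± 10.99 FPKM in MG53-TG (SD, n = 4 each). On this scale 8 members were lower and 6 higher, where 13.0% of all genes were lower and 24.6% higher, so neither share of members was above the background. The 8 lower than the family included Rps2 (-0.69 ± 0.22), Rpl27, Rplp1 (-0.40 ± 0.064), Rpsa (-0.38 ± 0.065), Rpl3, Rpl15 and Rpl34. The 6 higher than the family were Rpl36a (0.42 ± 0.080), Rps27l (0.44 ± 0.099), Rpl14, Rps29 (0.39 ± 0.083), Rpl37a and Rpl35. None of these 6 was called with the FPKM as deposited. Rps29 measured 238, 211, 224 and 237 FPKM in WT 1 to 4 and 232, 215, 267 and 263 FPKM in MG53-TG 1 to 4, and Rpl36a measured 199, 179, 187 and 188 FPKM in WT 1 to 4 and 186, 189, 219 and 229.7 FPKM in MG53-TG 1 to 4.

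Levels spanned a wide range. Of the 65 genes, 62 had a mean above 100 FPKM and 7 above 1000 FPKM, and FPKM is already set per length. The highest, Rps15, Rps2 and Rplp1, had overall means of 1568, 1509.6 and 1428 FPKM. Apart from Rpl7l1, the lowest were Rps19bp1, listed at 2.22 FPKM in WT 2, 5.68 FPKM in MG53-TG 4 and 0 in the other 6 samples, and Rpl21, at 68.4 to 80.6 FPKM in WT and 59.97 to 85.2 FPKM in MG53-TG. Across the 64 subunit genes, Spearman's rho of mean level with log2 fold change was -0.30, a description across genes measured in the same libraries. The median coefficient of variation within a group was 5.02% in WT and 8.67% in MG53-TG, against 13.6% and 21.4% over all genes tested. It was above 20% in 9 members in WT and in 11 in MG53-TG. Rpl18 ranged from 351 to 1062 FPKM in WT and from 375 to 868 FPKM in MG53-TG, and Rps28 was at 39.95 FPKM in MG53-TG 2 against 109.9 to 119 FPKM in the other MG53-TG samples. Many ribosomal protein genes have processed pseudogenes with near-identical sequence, and reads shared with those copies could make single values uncertain, which was not tested.

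A further 15 family genes carried no identifier of their own in the tables, because their locus bore the label of another gene, in most cases a small nucleolar RNA in an intron. They were read from the start and end positions that match their exon boundaries and stand apart from the 65. In that fit 8 of the 15 were called lower and 0 higher, with a median log2 fold change of -0.36, where 28.8% of all genes tested were lower. With median of ratios 2 of the 15 were called lower, where 20.2% of all genes tested were, so the share was no more than the background. Rpl12, whose locus is labelled Snora65, measured 408, 537, 388 and 389 FPKM in WT 1 to 4 and 227, 227, 216 and 218 FPKM in MG53-TG 1 to 4, a fold change of -0.94 ± 0.11 (SE), adjusted p = 0.00027. Rps12 measured 235, 202, 196 and 209 FPKM in WT 1 to 4 and 138, 127, 132 and 132 FPKM in MG53-TG 1 to 4, a fold change of -0.67 ± 0.080 (SE), adjusted p = 0.00031. These were the 2 that stayed lower with median of ratios, and in both every MG53-TG sample was below every WT sample. Rpl23a, Rpl27a, Rpl32, Rps20 and Rpl17 were among the other 6 called lower, with fold changes from -0.56 for Rpl17 to -0.28 for Rpl32. Rpl13a, known for a role in inflammatory translational control, was not called (-0.26 ± 0.094 (SE), adjusted p = 0.053), although its groups did not overlap. Rpl10l, Rpl13, Rpl36al and Rps27rt had neither an identifier nor a start or end position at their exon boundaries, so they had no value to analyse.

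The tables also list, for some introns, the FPKM of transcripts that keep the intron and of those that splice it out. Of these, 5 introns of members could be tested, in Rpl7, Rpl3, Rpl7a, Rps16 and Rpl18, and 0 were called by limma on the transformed share, against 0.270% of the 370 introns tested. The unadjusted p was below 0.05 for 1 of them, in Rpl7. The intron of Rpl7 at chr1:16103335-16103509 (175 bases, minus strand) was kept in 25.7, 28.2, 19.2 and 15.8% in WT 1 to 4 and 15.7, 10.9, 9.72 and 8.51% in MG53-TG 1 to 4. All MG53-TG samples lay below all WT samples, but the adjusted p was 0.22. The intron of Rps16 at chr7:28352274-28352362 (plus strand) was kept in 18.8% ± 1.12 in WT and 13.6% ± 2.85 in MG53-TG (SD, n = 4 each; limma, adjusted p = 0.41). The introns of Rpl7a, Rpl3 and Rpl18 overlapped between groups, with adjusted p of 0.41, 0.61 and 0.42. No skipped exon of a member passed the filter. In Rps24, known for alternative exons near its 3′ end, the form without the 20-base exon at chr14:24495430-24495449 was at 244 to 333 FPKM, and the form with it was at most 30.9 FPKM.

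The other genes of translation were read from lists, beside 29.2% called lower and 15.7% called higher among all genes tested. Of 33 initiation factor genes 17 were called lower and 0 higher, with a median log2 fold change of -0.44 beside -0.29 for the ribosomal protein genes and -0.17 for all genes. Pabpc1, which binds the poly(A) tail, was among them (-1.04 ± 0.11 (SE), adjusted p = 0.00014), and the eIF3 subunit genes Eif3e (-0.74 ± 0.066 (SE), adjusted p = 5.5e-05) and Eif3d (-0.79 ± 0.15 (SE), adjusted p = 0.0027) were too. Of 8 elongation and termination factor genes 5 were lower and 0 higher (median -0.65), among them Eef2, which moves the ribosome along the mRNA (-0.69 ± 0.13 (SE), adjusted p = 0.0034), and Eef1a1, which brings aminoacyl-tRNA (-0.61 ± 0.15 (SE), adjusted p = 0.012), whose call ended with median of ratios (adjusted p = 0.10). Of 41 ribosome biogenesis genes 21 were lower and 0 higher (median -0.62). Npm1, a nucleolar chaperone of assembly, was at 555 to 703 FPKM in WT and 172 to 282 FPKM in MG53-TG (-1.45 ± 0.16 (SE), adjusted p = 0.00021). With median of ratios the counts of lower genes were 10, 4 and 15 for these 3 lists, and 1 biogenesis gene was called higher, where 20.5% of all genes were lower and 20.6% higher.

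The lists share genes, and 14 of the 18 other genes known for a TOP tract that were tested also stand in another list. Of the 18, 12 were lower and 1, Fau, was higher (median -0.55), beside 29.2% lower and 15.7% higher among all genes. Under median-of-ratios scaling 8 were lower and 2 higher (median -0.36), beside 20.5% and 20.6%. Nap1l1, a histone chaperone, had the largest decrease of that list (-2.86 ± 0.49 (SE), adjusted p = 0.0020), and Tpt1 was not called (0.17 ± 0.076 (SE), adjusted p = 0.10). Of 15 TOR pathway genes and TOP regulators 3 were lower and 1 higher (median -0.13), a share of lower genes (20%) below that of all genes. After median-of-ratios scaling 2 were lower, 1 was higher and the median turned to 0.048. Larp1, which binds the TOP tract, was lower (-0.69 ± 0.16 (SE), adjusted p = 0.0075), Pdcd4, an inhibitor of initiation, was higher (0.28 ± 0.091 (SE), adjusted p = 0.033; 0.47 with median of ratios), and Mtor itself was not called (-0.13 ± 0.21 (SE), adjusted p = 0.65). Of 10 chaperones and adaptors of ribosomal proteins 4 were lower and 0 higher, of 7 ribosome quality control genes 4 were lower and 0 higher, and of 5 genes of p53 surveillance 2 were lower and 0 higher. The lower counts of these lists were 2, 3 and 1 with median of ratios. Of 71 genes for ribosomal proteins of mitochondria 7 were lower and 3 higher, with a median of -0.11, above the median of all genes, and both shares (9.86% and 4.23%) were below those of all genes. With median of ratios that median turned to 0.064, with 3 lower and 8 higher, and with quantiles it was 0.005.

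**Figure D5:**
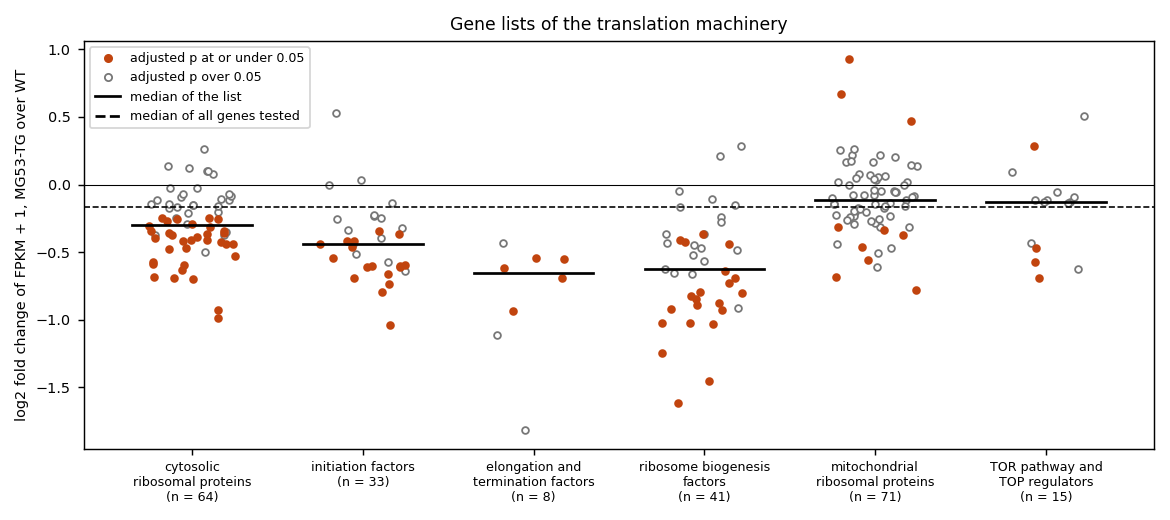
Log2 fold change of FPKM + 1, MG53-TG over WT, for each gene of the cytosolic ribosomal proteins and of 5 lists of the translation machinery. Filled points have an adjusted p of at most 0.05, bars are list medians and the dashed line is the median of all genes tested. The medians of the initiation, elongation and biogenesis lists lie below that of the ribosomal proteins, while those of the mitochondrial ribosomal proteins and the TOR pathway lie near the dashed line.

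Markers of cell state moved between the same groups, and their counts of calls stand beside 29.2% lower and 15.7% higher among all genes. The summed level of the 18 proliferation markers ran from 839 to 909 FPKM in WT and from 182 to 598 FPKM in MG53-TG, and 14 of the 18 were called lower and 0 higher. The 12 stem cell markers summed from 589.8 to 789.9 FPKM in WT and from 79.98 to 353 FPKM in MG53-TG, with 9 called lower and 0 higher. Enterocyte markers went the other way, from 1375 to 1597 FPKM in WT and from 12715 to 14203 FPKM in MG53-TG, with 18 of 20 called higher and 0 lower. Paneth cell markers summed from 1244 to 1662 FPKM in WT and from 376 to 559.6 FPKM in MG53-TG (7 of 8 lower, 1 higher), goblet cell markers from 756 to 863 FPKM in WT and from 227 to 676 FPKM in MG53-TG (5 of 8 lower, 0 higher) and enteroendocrine markers from 270.5 to 322 FPKM in WT and from 382 to 544 FPKM in MG53-TG (5 of 10 higher, 0 lower). Fabp1, an abundant fatty acid binding protein of enterocytes, alone went from 213 to 301 FPKM in WT to 5286 to 6099 FPKM in MG53-TG. For the transcriptome of MG53;Lgr5 organoids, the paper reports lower stemness and absorptive markers and higher secretory markers. The labels of the present samples name MG53-TG and WT instead. The paper also gives tissue staining, cell sorting and single-cell data for a secretory shift, which were not examined here. The summed enterocyte, Paneth and goblet markers here ran the other way, and the summed stem cell and enteroendocrine markers the same way. Of the 10 enteroendocrine markers tested, 5 had a fold change above 0 and 5 below 0. The paper's own marker genes were not compared with these lists. No defining stem cell, proliferation or enterocyte marker of these lists was without a value. The part of these markers in the lower share and level of the ribosomal protein genes was not tested.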

How the data were processed

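Total RNA of 8 organoid samples (4 WT, 4 MG53-TG, grouped by the genotype in the labels) was sequenced by the study. Per the authors' processing notes and methods, reads were trimmed with cutadapt 1.9.1, aligned to mm10 with HISAT2 2.0.1 and converted to FPKM with HTSeq 0.6.1, and the deposited tables list FPKM for transcript starts, ends, skipped exons and retained introns of each sample. How these events were called is not given in the sources used here. From the deposited FPKM, a gene's level was the sum over its start rows, or over its end rows where their mean was higher (51 and 14 members). Identifiers were matched to GENCODE M21 (13732 of 13739). An absent value counted as missing where the rest of the group had a median level of 0.5 FPKM or more, and otherwise as 0; no member had a missing value. Genes reaching a mean level of 0.5 FPKM were fitted with limma 3.58.1 (R 4.3.3, with an intensity trend) on log2(FPKM + 1), WT against MG53-TG, with Benjamini-Hochberg adjustment over all 10704 genes at 0.05. Fold changes are on the log2(FPKM + 1) scale and understate low genes. Intron shares were fitted after an arcsine square root transform. Single ratios were compared by exact two-sided permutation over 70 relabellings. The fit was tested on simulated data with independent noise for each gene. That simulation held no shift shared by a whole sample, so it could not test the scaling. No depth or counts were given, so no counting interval is printed.

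Named genes were the 5 largest non-overlapping called increases and decreases in each subunit, the 3 highest and 3 lowest levels, paralogue pairs, members with known roles outside the ribosome and members whose sign changes with scaling. The members and lists were chosen with earlier results of these data known. Promoter sequences came from RefSeq (GRCm38.p6). No promoter from chromosome 18 is printed. Results for some members are not reported here. Alternatives were another pseudocount, other filters, 2 scalings, a replicate block, sample weights, leaving out each sample, other readings of the rows and, chosen after seeing the data, scaling to the family mean and exon boundaries with median of ratios. Samples that share a number did not deviate together, so the numbers were not treated as pairs.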

Additional observations from a re-analysis of the deposited data

Results flagged for a closer look

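In groups of 4 samples, a sample was marked where its gap to the nearest other sample was large against the range of the group (Dixon's 95% critical value), over 43 values (42 named members and the summed family) in both genotypes, 86 groups in all. Chance marks about 1 in 20 groups, or 4.3 of 86, and 8 were marked. WT 2 was the low sample in 3 of them: Rpl22 was at 130.6 FPKM where the other WT samples were at 212.8 to 219.5, Rpl39 at 200.6 FPKM where the others were at 341.2 to 350.1, and Rpl11 at 283.7 FPKM where the others were at 307.2 to 311.9. WT 3 stood high for Rpl37, at 534.1 FPKM against 391.7 to 408.3. Among MG53-TG samples, Rpl21 was at 85.22 FPKM in MG53-TG 4 against 59.97 to 63.25, and Rpl35 at 491.3 FPKM in MG53-TG 1 against 530.5 to 535.9. Rps19bp1 was listed at 2.221 FPKM in WT 2 and at 5.677 FPKM in MG53-TG 4, and at 0 elsewhere. With the other samples of a group at 0, any value is marked, so the marks of Rps19bp1 cannot be set against the chance count. The summed level of the family was marked in neither genotype. Whether these values come from the sample or from how reads were assigned to transcripts was not tested.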

How the results depend on the processing

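The scaling of the samples moved the counts most. With median-of-ratios scaling 12 members were lower, 1 was higher and the median log2 fold change was -0.11 (-0.1053); with exon boundaries and median of ratios, chosen after seeing the data, 12 were lower and the median was -0.11 (-0.1119). Scaling to the family mean, also chosen after seeing the data, gave 8 lower, 6 higher and a median of -0.0014, and turned Rpl11 to 0.0493, Rpl35 to 0.2023 and Rpl37a to 0.2756; the scaling sets the family's mean near 0 by construction. End rows alone gave 30 lower and 1 higher, which was Rps7, at 1.51 against -0.11 in the start rows. Its end rows had a mean of 6.21 FPKM against 550.03 FPKM in its start rows, and the cause was not tested. Start and end means lay within 10% of each other for 50 of the 65 members. Others disagreed in either direction, such as Rpl10a, at 0.046 FPKM in end rows against 756 FPKM in start rows, and Rps10, at 617 against 213 FPKM. With the replicate block 31 members were lower, 0 were higher and the median stayed at -0.29, and correlations of same-numbered samples ran from -0.040 to 0.096. Without 1 sample in turn, 29 to 34 members were lower, 0 were higher and the median ran from -0.32 to -0.26; 27 of the 34 called members kept their call in all 8 such fits. Another pseudocount, other filters, sample weights and start rows gave 32 to 34 lower and 0 higher, and 0 of the introns tested in members were called under any setting run; no exon of a member was tested. Of the single-gene values under alternatives, 826 kept their side of the threshold, 30 lost a call, 17 gained one and 4 turned sign with a call on at least 1 side. No depth was given, so what it limits cannot be stated.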
